A study of Homo sapiens
Mus musculus and Mus musculus and Homo sapiens with 16 samples.

Results

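The 9 genes described here encode receptors that steer B cells by chemical gradients, together with the proteins that limit their signal: CXCR4, CXCR5, CXCR3, CCR7, CCR6, GPR183, ACKR3, GRK2 and ARRB2. They were taken by symbol, with no threshold on their values, from a table of 58051 human genes. Their transcript levels were measured by RNA sequencing in REC-1, an established human mantle cell lymphoma (MCL) cell line. REC-1 cells were kept for 24 h either alone (Sep) or with MS-5, a mouse bone marrow stromal cell line that had been seeded a day earlier. From the coculture, REC-1 cells in suspension (Susp) and REC-1 cells adhered to the stroma (Adh) gave separate libraries, and MS-5 cells were also sequenced alone. All groups had the same medium, the labels name no drug or engineered change in any of them, and each group had 4 libraries, 16 in all. Adhered cells were not separated from stroma before lysis, so each Adh library held RNA of both species and its reads were sorted by species afterwards. Each cell line is a single line, and the study describes the libraries of a group as independent experiments. As the libraries are bulk RNA, fewer cells of a type and less RNA per cell cannot be told apart.

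Most chemoattractant receptors have 7 membrane spans and signal through Gi proteins, whose freed subunits activate a phosphoinositide 3-kinase and the Rac and Rap GTPases that move the cell and activate its integrins. In B cells, CXCR4 responds to CXCL12 of bone marrow and lymph node stroma, CXCR5 to CXCL13 of follicles, CCR7 to CCL19 and CCL21 of the T cell zone, and GPR183 to oxysterols that position cells at the edge of the follicle. G protein-coupled receptor kinases phosphorylate an activated receptor, and arrestins then uncouple it from its G protein and carry it into the cell. A transcript level says nothing of how much receptor stood at the cell surface, which was not measured in these files.

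The human counts per library were 9325412 to 12597891 in Sep, 15000927 to 21467832 in Susp and 7758979 to 13241751 in Adh. Levels are given in CPM, the usual library-scaled count unit, here over human counts with TMM-adjusted library sizes, and, between genes, as CPM per kilobase of exon (RPKM). Among markers of B cells and MCL, MS4A1, CD79A, CD79B, PAX5, CCND1 and SOX11 had at least 125 counts in every REC-1 library, and CD5, commonly present in MCL, had 0 to 22. The 10 stromal markers summed to 5.04 to 7.22 CPM in Sep, 4.16 to 6.77 in Susp and 5.49 to 6.61 in Adh, and these sums rest almost wholly on FN1 and POSTN, the 2 of the 10 that reached 10 counts in a library. The other 8 had at most 6 counts in a library; COL1A2, COL5A1, LUM and PDGFRB were at 0 in all Sep libraries, SPARC, LUM, DCN and PDGFRB in all Susp libraries and COL1A2, COL5A1, LUM and DCN in all Adh libraries. FN1 and POSTN were not called, with 1 of them at an unadjusted p below 0.05 between Adh and Susp and 0 in the comparisons with Sep, and DESeq2 called 0. Calls over all genes depended on single libraries: between Adh and Sep, 309 genes became 519 without Susp replicate 2 and 490 without Sep replicate 1. Between Adh and Susp, 100 became 89 and 165 without the same libraries. Values without Susp replicate 2 are given below.

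Per kilobase and over the 12 REC-1 libraries, the kinase GRK2 was highest of the 9 genes, at a mean of 34.7 RPKM with a range of 24.7 to 43.2. GPR183 was the highest receptor with a mean of 21.4 RPKM (18.1 to 25.3), followed by CXCR4 with 15.1 (11.8 to 19.1) and CXCR5 with 10.4 (7.85 to 12.2). ARRB2, the arrestin, had a mean of 8.82 RPKM (7.04 to 11.9). ACKR3 came next at 2.63 RPKM (1.98 to 3.09), then CCR7 at 0.537 (0.250 to 0.803), CXCR3 at 0.242 (0 to 0.428) and CCR6 at 0.0324 (0 to 0.0728). Neighbours overlapped in this order except ARRB2 above ACKR3 and ACKR3 above CCR7. Among 12773 tested genes with an exon length, the mean level of GRK2 stood at percentile 90.3, GPR183 at 83.5, CXCR4 at 76.6, CXCR5 at 68.2, ARRB2 at 64.0, ACKR3 at 36.7 and CCR7 at 13.8. REC-1 cells thus carried transcripts counted for the receptors for marrow stroma, follicle and follicle edge, and few of those for the T cell zone. The level of CXCR5, the follicle receptor, is uncertain, as 91.1% of its exon bases lie opposite exons of another gene, BCL9L.

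A gene was called at an adjusted p of at most 0.05 and a change of at least 1.5-fold. CXCR3 and CCR6 failed edgeR's filter on low counts, so 7 of the 9 genes were tested. None of the 7 was called between any of the 3 fractions by edgeR's quasi-likelihood test. Of all 12861 genes tested, 0.731% were called between Susp and Sep, 2.40% between Adh and Sep and 0.778% between Adh and Susp. At an unadjusted p below 0.05 the member genes numbered 4 between Susp and Sep (CXCR4, CXCR5, CCR7 and GPR183), 3 between Adh and Sep (CXCR4, CXCR5 and CCR7) and 1 between Adh and Susp (ARRB2). Over all tested genes 16.7%, 20.2% and 18.0% had such a p in these comparisons, the background for each such count given here. DESeq2 also called 0 of them in each comparison, but gave CCR7 no adjusted p between Susp and Sep. Regardless of fold, 0 had an adjusted p of at most 0.05 in edgeR, where 1.02%, 3.41% and 0.941% of all genes did. The Susp and Adh comparisons with Sep share the Sep libraries, so their values are not independent of each other.

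**Figure D1:**
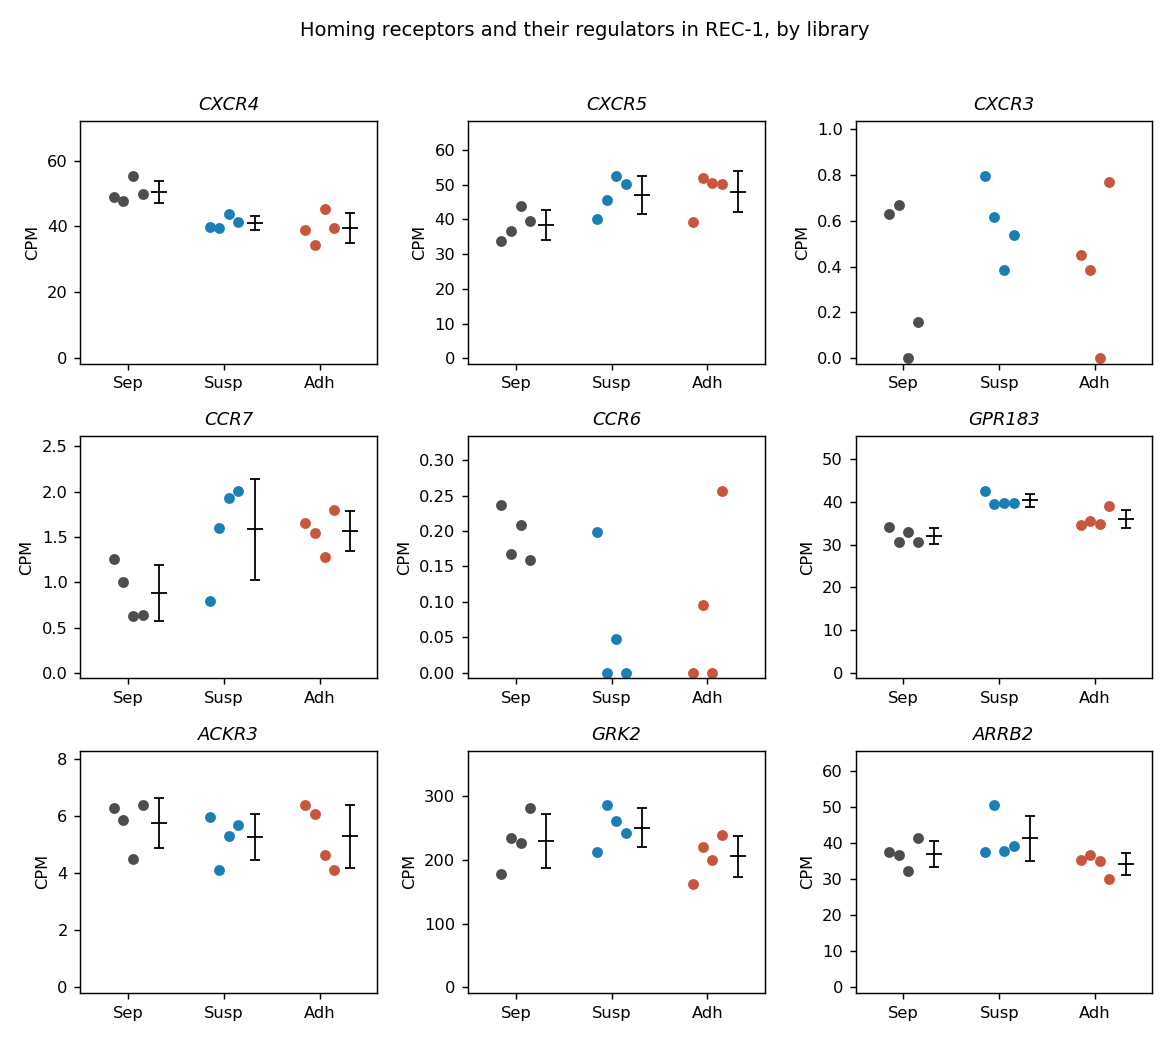
Transcript level in CPM (vertical axes, linear and different for each gene) of the 9 genes in the 4 Sep, 4 Susp and 4 Adh libraries, in replicate order within a group. Points are libraries and black bars are the mean with SD, left out for CXCR3 and CCR6, which have 12 counts or fewer in each library. Each Sep library of CXCR4, at 47.7 CPM or more, lies above each coculture library.

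CXCR4 (ENSG00000121966, GRCh38 chromosome 2, 136114349 to 136119177, minus strand) was lower in both coculture fractions than in monoculture, without passing the test. Its level was 49.0, 47.7, 55.3 and 49.8 CPM in Sep replicates 1 to 4, 39.7, 39.4, 43.9 and 41.4 CPM in Susp and 38.8, 34.3, 45.2 and 39.6 CPM in Adh. The Sep libraries were thus all above the Susp and Adh libraries, and the Susp and Adh libraries overlapped. The group means were 50.5 ± 3.36, 41.1 ± 2.06 and 39.5 ± 4.49 CPM (SD, n = 4 each). Susp differed from Sep by -0.30 on the log2 scale (SE 0.10, edgeR adjusted p = 0.170) and Adh from Sep by -0.36 (SE 0.10, edgeR adjusted p = 0.0622). The interval of the second ran from -0.57 to -0.14, which is a level of 0.781 times that of Sep, between 0.674 and 0.905 times. Over 20 alternative settings the adjusted p of CXCR4 between Adh and Sep ran from 0.0196 to 0.184 and was at most 0.05 in 6, among them DESeq2 (0.0196) and the fits without Susp replicate 2 (0.0236) and without Adh replicate 3 (0.0487). In no setting did its change reach 1.5-fold, as the log2 fold change stayed between -0.43 and -0.29 with any library left out. Between Adh and Susp the difference was -0.06 (SE 0.10, interval -0.27 to 0.15), less than the spread between libraries.

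A contrast of the mean of both coculture fractions with Sep, chosen after the values were seen, put CXCR4 lower in coculture by a log2 value of -0.33 (SE 0.09, edgeR adjusted p = 0.0568). In it, 1.24% of all tested genes were called, 2.22% had an adjusted p of at most 0.05, and 0 of the 7 member genes did either. At an unadjusted p below 0.05 there were 4, beside 19.5% of all genes, and DESeq2 called 0. For 4.99% of all genes the 4 Sep libraries lay apart from all 8 coculture libraries, and CXCR4 (lower in coculture) and GPR183 (higher) were the 2 members among them.

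CXCR5 (ENSG00000160683, chromosome 11, 118883892 to 118897787, plus strand), the receptor that draws B cells into follicles, had higher means in coculture. Its level was 33.7, 36.8, 43.9 and 39.6 CPM in Sep, 40.2, 45.5, 52.5 and 50.3 CPM in Susp and 39.3, 51.9, 50.6 and 50.2 CPM in Adh, and the groups overlapped. On the log2 scale CXCR5 differed by 0.29 (SE 0.12, interval 0.04 to 0.55, edgeR adjusted p = 0.244) in Susp and 0.32 (SE 0.12, interval 0.06 to 0.57, edgeR adjusted p = 0.152) in Adh, each against Sep. Adh replicate 1 was far below the other 3 Adh libraries, and without it the difference between Adh and Sep was the largest of its leave-one-out values, 0.40. Susp and Adh differed by 0.02 (SE 0.12, interval -0.23 to 0.27). In the GENCODE annotation used for lengths, 91.1% of the exon bases of CXCR5 lie opposite exons of BCL9L, and the library kit did not mark strand, so strand cannot tell reads of the pair apart there. BCL9L itself had log2 fold changes of -0.09 (SE 0.21, interval -0.54 to 0.35) in Susp and -0.28 (SE 0.22, interval -0.74 to 0.17) in Adh against Sep and was not called, and its part in the values of CXCR5 was not tested.

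GPR183 (ENSG00000169508, chromosome 13, 99294539 to 99307399, minus strand) had its highest level in suspension. It measured 34.2, 30.5, 32.9 and 30.5 CPM in Sep, 42.6, 39.4, 39.8 and 39.6 CPM in Susp and 34.6, 35.5, 34.7 and 39.1 CPM in Adh. All 3 groups were apart from each other, in the order Susp, Adh and Sep. Its log2 fold change was 0.33 (SE 0.09, interval 0.14 to 0.52, edgeR adjusted p = 0.0941) between Susp and Sep, 0.17 (SE 0.09, edgeR adjusted p = 0.327) between Adh and Sep and -0.17 (SE 0.09, edgeR adjusted p = 0.342) between Adh and Susp. For Susp and Sep the adjusted p ran from 0.0222 (DESeq2) to 0.259 over 20 alternatives, 1 of them at most 0.05. The gene lies within UBAC2 on the opposite strand and shares 0 exon bases with it.

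Libraries of the groups did not overlap for 11.3% of all tested genes between Susp and Sep, 15.7% between Adh and Sep and 11.4% between Adh and Susp. Among the 7 member genes these were CXCR4 and GPR183 between Susp and Sep, CXCR4, CCR7 and GPR183 between Adh and Sep, and GPR183 and ARRB2 between Adh and Susp.

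CCR7 (ENSG00000126353, chromosome 17, 40553769 to 40565472, minus strand), which guides lymphocytes into lymph nodes, was near the limit of detection. Its counts were 16, 12, 6 and 8 in Sep, 12, 26, 40 and 30 in Susp and 22, 16, 10 and 14 in Adh. In CPM these were 0.628 to 1.26 in Sep, 0.796 to 2.01 in Susp and 1.28 to 1.80 in Adh, so each Adh library was above each Sep library while Susp overlapped both. The fold was 1.78 between Susp and Sep (interval 1.04 to 3.04, edgeR adjusted p = 0.270) and 1.76 between Adh and Sep (interval 1.0 to 3.08, edgeR adjusted p = 0.245). These are the largest differences among the 7 genes and the least precise, and a change of 1.5-fold in CCR7 lay within all 3 of its intervals.

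CXCR3 (ENSG00000186810, chromosome X, 71615916 to 71618511, minus strand) had few counts in these libraries. CCR6 (ENSG00000112486, chromosome 6, 167111807 to 167139141, plus strand) was at the floor of these libraries. CXCR3, the receptor of CXCL9, CXCL10 and CXCL11, had 8, 8, 0 and 2 counts in Sep, 12, 10, 8 and 8 in Susp and 6, 4, 0 and 6 in Adh. CCR6, the receptor of CCL20, had 3, 2, 2 and 2 counts in Sep, 3, 0, 1 and 0 in Susp and 0, 1, 0 and 2 in Adh. The groups overlapped for both genes, and a library at 0 allows up to 3 counts, which is 0.140 to 0.387 CPM by depth and covers counting error only. All counts of CXCR3 were even, as were most low counts of these libraries, and if each read pair was counted as 2 the limit is 6 counts, or 0.279 to 0.773 CPM. In a fit with no low-count filter neither gene was called, with edgeR adjusted p of 0.723 or more for CXCR3 and 0.643 or more for CCR6. A gene that shares 85.2% of the exon bases of CCR6 on the same strand is in the same table with 39 counts over the 12 libraries, so the level of CCR6 is uncertain.

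ACKR3 (ENSG00000144476, chromosome 2, 236567787 to 236582354, plus strand) takes up CXCL12 without coupling to a G protein and so competes with CXCR4 for it. Its level was 6.30, 5.86, 4.50 and 6.38 CPM in Sep, 5.97, 4.12, 5.32 and 5.71 CPM in Susp and 6.39, 6.07, 4.63 and 4.11 CPM in Adh. The 3 groups overlapped, with log2 fold changes of -0.13 (SE 0.20, interval -0.55 to 0.28) in Susp and -0.11 (SE 0.20, interval -0.54 to 0.32) in Adh against Sep. Changes of 1.5-fold lay outside these intervals, and smaller ones could not be resolved at 32 to 110 counts per library.

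GRK2 (ENSG00000173020, chromosome 11, 67266473 to 67286556, plus strand) is the kinase that phosphorylates CXCR4 and many other activated receptors. It was at 178, 234, 226 and 281 CPM in Sep, 213, 286, 261 and 243 CPM in Susp and 163, 221, 200 and 239 CPM in Adh. All groups overlapped, and replicate 1 was the lowest library in each. GRK2 differed by 0.13 on the log2 scale (SE 0.14) between Susp and Sep, -0.16 (SE 0.14) between Adh and Sep and -0.29 (SE 0.14, interval -0.58 to 0.01, edgeR adjusted p = 0.289) between Adh and Susp.

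ARRB2 (ENSG00000141480, chromosome 17, 4710596 to 4721499, plus strand), the arrestin that binds phosphorylated receptors, was at 37.6, 36.7, 32.4 and 41.5 CPM in Sep, 37.7, 50.6, 38.0 and 39.2 CPM in Susp and 35.3, 36.9, 35.2 and 30.0 CPM in Adh. Each Adh library was below each Susp library, and Sep overlapped both. Between Adh and Susp ARRB2 differed by -0.27 on the log2 scale (SE 0.12, interval -0.52 to -0.02, edgeR adjusted p = 0.252). Susp replicate 2 was far above the other 3 Susp libraries, and without it the value was -0.14 (edgeR adjusted p = 0.484).

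**Figure D2:**
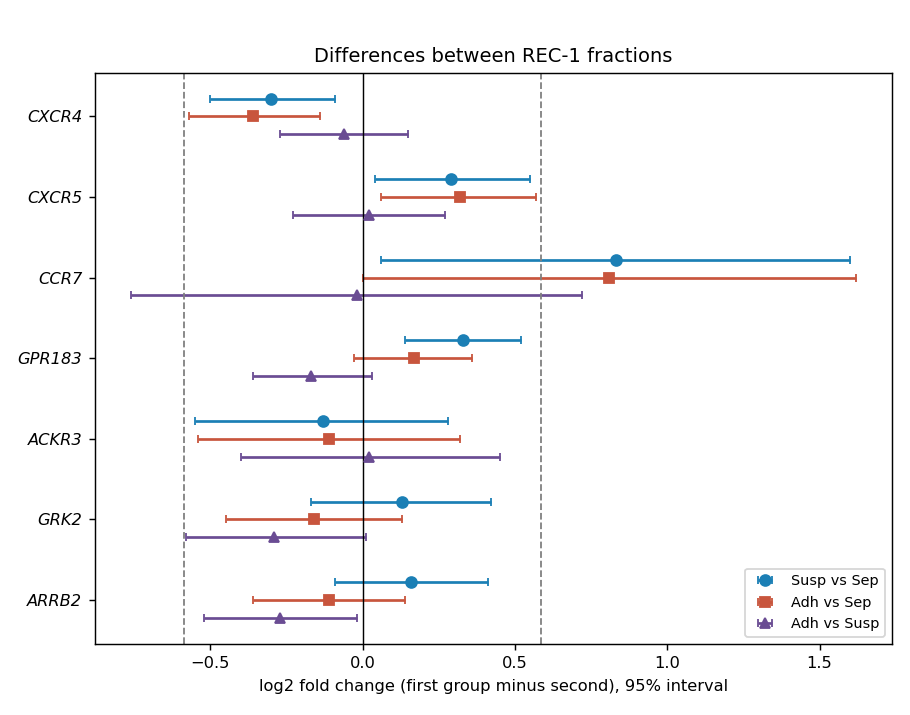
Log2 fold change (horizontal axis, first group minus second) of the 7 tested genes between Susp and Sep (circles), Adh and Sep (squares) and Adh and Susp (triangles), with 95% intervals from edgeR. Dashed lines mark a change of 1.5-fold, and only the intervals of CCR7 extend beyond them.

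The intervals of CXCR4, CXCR5, GPR183, ACKR3, GRK2 and ARRB2, 6 of the 7 tested genes, lay within 1.5-fold in either direction in all 3 comparisons. Over the 7 genes the median log2 fold change was 0.16 between Susp and Sep, -0.11 between Adh and Sep and -0.06 between Adh and Susp, beside medians of -0.01, 0.00 and -0.01 over all tested genes. Without Susp replicate 2 none of the 7 was called either, in any of the 3 comparisons. The log2 fold changes between Susp and Sep were then -0.29 for CXCR4, 0.30 for CXCR5, 0.82 for CCR7, 0.33 for GPR183, -0.04 for ACKR3, 0.05 for GRK2 and 0.04 for ARRB2, so the values of ACKR3, GRK2 and ARRB2 depended on this library most.

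As the differences of CXCR4 and CXCR5 were of opposite sign, the balance between them was followed within each library, a measure chosen after their values were seen and given without a test. The RPKM of CXCR5 relative to CXCR4 was 0.464, 0.522, 0.537 and 0.538 in Sep, 0.685, 0.781, 0.809 and 0.822 in Susp and 0.685, 1.02, 0.757 and 0.855 in Adh. The mean ratio was 0.515 ± 0.0346 in Sep, 0.774 ± 0.0619 in Susp and 0.830 ± 0.147 in Adh (SD, n = 4), with no overlap between Sep and either coculture fraction. GPR183 relative to CXCR4 was 1.02 to 1.20 in Sep, 1.56 to 1.85 in Susp and 1.32 to 1.79 in Adh. Every coculture library was below every Sep library for CXCR4 and above for GPR183, so this separation follows from their levels and adds nothing to them. How often the ratios of other gene pairs separate in this way was not computed. CXCR4 relative to ACKR3, its competitor for CXCL12, overlapped among the groups, with means of 6.43 ± 1.57, 5.66 ± 0.912 and 5.56 ± 1.59 (SD, n = 4). A ratio within a library shows unequal change and not which of both genes moved. The ratio of CXCR5 to CXCR4 shares the uncertainty in the level of CXCR5.

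**Figure D3:**
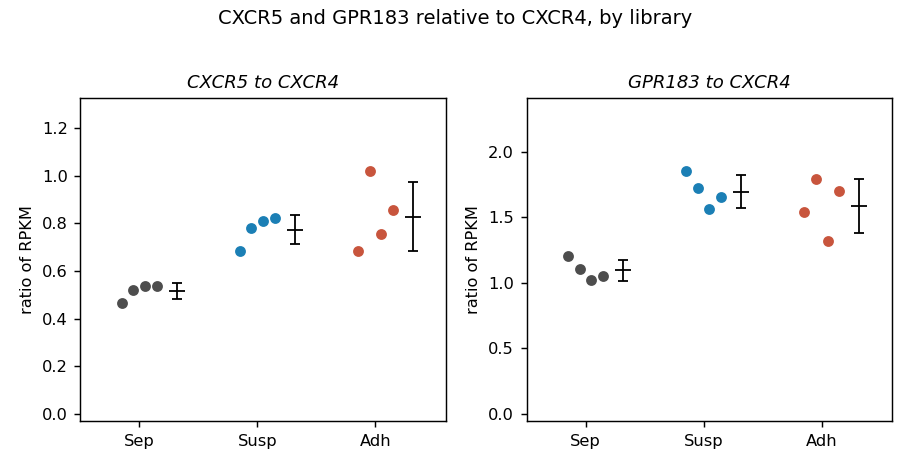
Ratio of RPKM (vertical axis, linear) of CXCR5 to CXCR4 (left) and GPR183 to CXCR4 (right) in each library, with the mean and SD of each group as black bars. For both ratios the 4 Sep libraries, at most 0.538 and 1.20, lie below all 8 coculture libraries, which for GPR183 to CXCR4 follows from the levels of both genes.

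The genes whose levels followed that of CXCR4 most closely over the 12 libraries were KCNH4, HS3ST3B1 and SERPIND1. Their standardized log2 CPM differed from that of CXCR4 by a root mean square of 0.36, 0.39 and 0.40, beside a median of 1.34 over all tested genes. They were picked as the nearest of 12861 tested genes by this measure, so values below the median follow from the choice. Shared regulation was not tested. HS3ST3B1, a heparan sulfate sulfotransferase, was at 99.5 to 109 CPM in Sep, 64.0 to 91.3 in Susp and 63.3 to 94.7 in Adh. KCNH4, a potassium channel subunit, was at 4.41 to 5.66 CPM in Sep, 1.26 to 2.90 in Susp and 1.35 to 2.57 in Adh. SERPIND1, a heparin-dependent inhibitor of thrombin, was at 3.31 to 5.96 CPM in Sep, 2.26 to 2.51 in Susp and 2.10 to 2.57 in Adh.

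Of 23 other chemoattractant receptors, 10 had no count in any REC-1 library, 9 had at most 14 counts in a library and were not tested, and 4 were tested. LTB4R, a receptor of the lipid attractant leukotriene B4, fell in adhered cells. It was at 8.50, 14.6, 11 and 17.3 CPM in Sep, 11.7, 14.4, 11.9 and 11.2 CPM in Susp and 4.36, 5.49, 6.17 and 6.93 CPM in Adh, where each library was below each Sep and Susp library. LTB4R differed by -1.18 on the log2 scale (SE 0.22, edgeR adjusted p = 0.00513) against Sep and -1.12 (SE 0.21, edgeR adjusted p = 0.0169) against Susp. The first call held in all 20 alternatives, and the second was lost without Adh replicate 1 (-1.0, edgeR adjusted p = 0.0759) or Adh replicate 2 (-1.10, edgeR adjusted p = 0.0505). LTB4R shares 8.0% of its exon bases with LTB4R2 on the same strand. CCR2, a receptor for monocyte chemoattractants, was at 6.07 ± 1.34 CPM in Sep, 4.19 ± 0.902 in Susp and 5.10 ± 0.928 in Adh (SD, n = 4) and was not called. LTB4R2, the other leukotriene B4 receptor, differed by -1.19 between Adh and Sep (edgeR adjusted p = 0.0647) and was called there by DESeq2 (-1.20, adjusted p = 0.0157). It was named after its values were seen. Between Susp and Sep 0 of the 4 were called, 2 had an unadjusted p below 0.05 and DESeq2 called 0. DESeq2 called 2 of the 4 between Adh and Sep, where edgeR called 1, and 1 between Adh and Susp, as edgeR did. The median log2 fold change of the 4 was -0.53 between Susp and Sep, -0.72 between Adh and Sep and -0.08 between Adh and Susp.

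The machinery that desensitises and sorts these receptors was called in no comparison. Of its 12 genes, which include other receptor kinases, ARRB1 and the ubiquitin-dependent sorting proteins that send CXCR4 to the lysosome, 11 were tested. An unadjusted p below 0.05 was found for 2 between Susp and Sep, 0 between Adh and Sep and 3 between Adh and Susp, and DESeq2 called 0 in each. The highest per kilobase were VPS4A and VPS4B, ATPases of the endosomal sorting complex. VPS4B was at 23.7 ± 1.86 RPKM in Sep, 22 ± 0.583 in Susp and 25.4 ± 1.58 in Adh, and VPS4A at 20.7 ± 1.51, 23.8 ± 3.55 and 22.7 ± 1.21 (SD, n = 4). The medians of the list were -0.01, 0.10 and 0.06 on the log2 scale.

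Of 28 genes of Gi signalling to the cytoskeleton and integrins, 27 were tested and 2 were called, each in 1 of the 3 comparisons between fractions. PIK3CG, the catalytic subunit of the phosphoinositide 3-kinase that Gi subunits activate, was higher in adhered than in monocultured cells. It was at 3.31, 2.51, 3.98 and 3.19 CPM in Sep, 6.37, 2.95, 6.28 and 7.66 CPM in Susp and 8.42, 5.97, 10.1 and 6.29 CPM in Adh, so that each Adh library was above each Sep library and Susp replicate 2 stood with Sep. PIK3CG differed by 1.25 on the log2 scale (SE 0.28, edgeR adjusted p = 0.0211) between Adh and Sep and 0.85 (SE 0.27, edgeR adjusted p = 0.159) between Susp and Sep. Adh and Susp libraries overlapped, with a difference of 0.41 (edgeR adjusted p = 0.414), so a change particular to adhered cells was not shown. The mean of both coculture fractions against Sep, a contrast chosen after the values were seen, also called PIK3CG (1.05, edgeR adjusted p = 0.0339). The call between Adh and Sep was lost without Sep replicate 2 or 4 or Adh replicate 1 or 3 (1.10 to 1.24, edgeR adjusted p = 0.0583 to 0.0914). Without Susp replicate 2 PIK3CG was also called between Susp and Sep (1.05, edgeR adjusted p = 0.0253).

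RASGRP2, the exchange factor that activates Rap at the integrins, was lower in adhered than in suspended cells. It was at 71.7, 105, 92.3 and 113 CPM in Sep, 90.7, 127, 99.9 and 100 CPM in Susp and 58.5, 70.9, 66.4 and 76.7 CPM in Adh. Adh and Susp libraries did not overlap, and the log2 fold change of RASGRP2 between them was -0.62 (SE 0.14, edgeR adjusted p = 0.0438). This call was lost when any of 9 libraries was left out (Sep 2 or 3, Susp 2, 3 or 4, or any Adh replicate), with log2 fold changes of -0.68 to -0.50 and edgeR adjusted p of 0.0506 to 0.159. Against Sep its difference in Adh was -0.49 (SE 0.14, edgeR adjusted p = 0.0638), and it was called without Sep replicate 1 (-0.60, edgeR adjusted p = 0.0111).

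The Gi genes with the highest levels per kilobase were GNB1, a G protein beta subunit, and RAC2, the Rac GTPase of blood cells. GNB1 was at 76.9 ± 2.87 RPKM in Sep, 83.1 ± 3.33 in Susp and 83.8 ± 1.69 in Adh, and RAC2 at 74.7 ± 5.55, 98.9 ± 10.0 and 85.4 ± 8.92 (SD, n = 4). RAC2 was higher in each Susp than in each Sep library, by 0.40 on the log2 scale (SE 0.10, edgeR adjusted p = 0.0585, 0.00616 to 0.198 over 20 alternatives), under 1.5-fold. Between Susp and Sep 0 of the 27 genes were called, 6 had an unadjusted p below 0.05 and DESeq2 called 0. DESeq2 called 1 between Adh and Sep, PIK3CG, and 2 between Adh and Susp, RASGRP2 and the phospholipase PLCB2 (-0.63, adjusted p = 0.0273, with an edgeR adjusted p of 0.0929), which was named after its values were seen. The medians of the list were 0.09, 0.09 and -0.07 in the 3 comparisons.

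**Figure D4:**
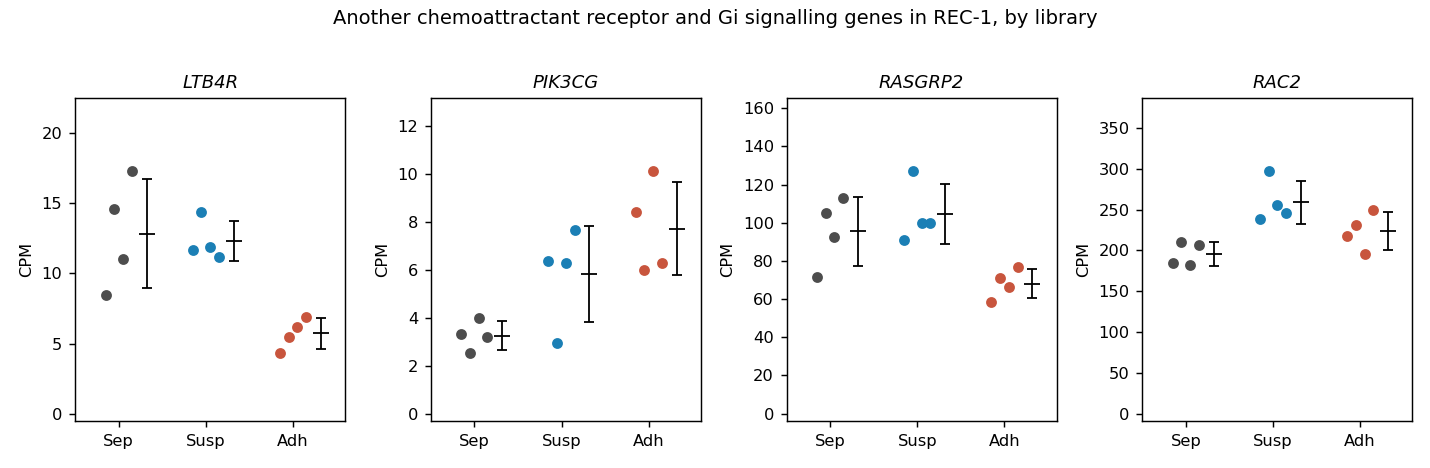
Transcript level in CPM (vertical axes, linear) of LTB4R, PIK3CG, RASGRP2 and RAC2 in each REC-1 library, with the mean and SD of each group as black bars. LTB4R in Adh, at most 6.93 CPM, lies below all Sep and Susp libraries, and PIK3CG in Adh, at least 5.97 CPM, lies above all Sep libraries.

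The ligands were then followed in both species. Of 13 genes that encode ligands of these receptors or make their oxysterol ligand, 7 had no count in any REC-1 library: CXCL12, CXCL13, CCL19, CCL21, CCL20, CH25H and CYP7B1. CXCL9 and CXCL10 rose in both coculture fractions. CXCL9 was at 8.98, 10.9, 9.83 and 8.93 CPM in Sep, 20.4, 18.8, 20.5 and 23.5 CPM in Susp and 20.9, 16.8, 20.6 and 14.9 CPM in Adh. CXCL10 was at 16.5, 14.6, 11.5 and 10.4 CPM in Sep, 30.9, 31.3, 23.8 and 24.5 CPM in Susp and 26.6, 27.0, 22.6 and 31.8 CPM in Adh. For both, each coculture library was above each Sep library, and Susp and Adh overlapped. For CXCL9 the log2 fold change was 1.11 (SE 0.14, edgeR adjusted p = 0.000560) in Susp and 0.92 (SE 0.14, edgeR adjusted p = 0.00128) in Adh against Sep. That of CXCL10 was 1.05 (SE 0.16, edgeR adjusted p = 0.00237) and 1.02 (SE 0.16, edgeR adjusted p = 0.00161), and the 4 calls held in all 20 alternatives. Between Adh and Susp 0 of the 3 tested ligand genes were called, 0 had an unadjusted p below 0.05 and DESeq2 called 0. CXCR3, the receptor of both chemokines, had at most 12 counts per library in the same cells. MIF, the third ligand gene tested, had 1 to 15 counts per library, and 94.1% of its exon bases lie opposite MIF-AS1, so its level is uncertain. CXCL11, CYP27A1 and HSD3B7 had at most 8 counts and were not tested.

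In MS-5, the mouse counts were 10097555 to 17397651 in cells alone and 29495404 to 34615602 in the Adh libraries. Of the same 13 genes, Cxcl12, the ligand of CXCR4 and ACKR3, and Mif, which also binds CXCR4, were expressed. Cxcl12 was at 394, 304, 309 and 279 CPM in MS-5 alone and 521, 383, 428 and 435 CPM in MS-5 with adhered REC-1 cells, and MS-5 replicate 1 overlapped the coculture libraries. The log2 fold change of Cxcl12 was 0.46 (SE 0.10, interval 0.24 to 0.67, edgeR adjusted p = 0.0486), a 1.37-fold difference, under the 1.5-fold needed for a call. Its adjusted p was above 0.05 in 7 of 15 alternatives, which were the current form of edgeR's fit (0.0519) and the fits without MS-5 replicate 2, 3 or 4 (0.160 to 0.172) or Adh replicate 1, 3 or 4 (0.0832 to 0.102). Mif was at 361 to 490 CPM alone and 370 to 528 CPM in coculture, with a log2 fold change of 0.09 (SE 0.10). Cxcl13, Ccl19, Ccl21a, Ccl20, Cxcl9, Ch25h, Cyp7b1 and Hsd3b7 had 0 counts in all 8 libraries, Cxcl10 had 1 count in a single Adh library, and Cxcl11 and Cyp27a1 had at most 2 counts. Thus 0 of the 2 tested ligand genes were called, 1 had an unadjusted p below 0.05 (11.3% of all mouse genes tested) and DESeq2 called 0, and 0.205% of the 12201 mouse genes tested were called and 0.770% had an adjusted p of at most 0.05. The stromal markers Lum and Dcn were at 0 in MS-5, and the other 8 of 10 were expressed, with 1 at an unadjusted p below 0.05 and 0 called by edgeR or DESeq2.

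**Figure D5:**
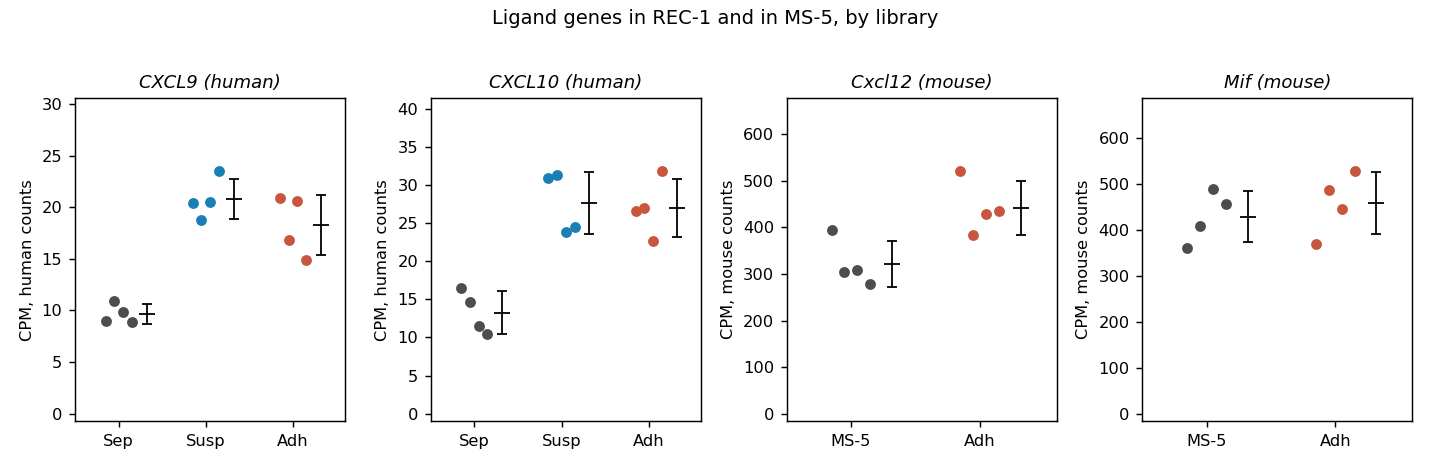
Transcript level in CPM (vertical axes, linear and different for each gene) of CXCL9 and CXCL10 in REC-1 (human counts) and of Cxcl12 and Mif in MS-5 alone and in the Adh libraries (mouse counts), with the mean and SD of each group as black bars. CXCL9 and CXCL10 lie higher in all 8 coculture libraries than in all 4 Sep libraries, and MS-5 replicate 1 of Cxcl12, at 394 CPM, lies within the range of the Adh libraries.

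The mouse genes of the same names were counted in the same Adh libraries, which does not measure how many mouse reads were assigned to human. Cxcr4, Ccr7 and Ccr6 had 0 mouse counts in all Adh and MS-5 libraries, while human CXCR4 had 309 to 516 counts in the Adh libraries. Mouse Cxcr5 had 13, 9, 17 and 9 counts in Adh and 0, 5, 2 and 5 in MS-5 alone, which in Adh is 1.67% to 4.31% of the human CXCR5 count. Mouse Cxcr3 had 0, 4, 4 and 4 counts in Adh, beside 6, 4, 0 and 6 for human CXCR3. Gpr183 had at most 4 counts and Ackr3 at most 14 in a library, and Ackr3 in Adh replicate 2 came to 22.2% of the human ACKR3 count. Grk2, at 121 ± 6.20 CPM in Adh and 127 ± 6.49 in MS-5 alone, and Arrb2, at 16.3 ± 2.59 and 16.0 ± 1.85 (SD, n = 4), are expressed by stroma itself and did not pass the test, with 0 at an unadjusted p below 0.05 and 0 called by DESeq2. For these 2 genes the Adh libraries held as many mouse as human counts or more, apart from replicate 1 of ARRB2, where the mouse count was 97.0% of the human count, and how far that bears on their human values was not tested.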

How the data were processed

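The data were RNA-seq counts per gene from 4 libraries each of Sep, Susp, Adh and MS-5 (16 in all). To make them, the authors sorted reads by species (Xenome), ran STAR 2.5.1b against GRCh38 or GRCm38 with Ensembl annotation, kept uniquely mapped reads and counted them with featureCounts of Subread 1.5.2. The deposited counts are whole numbers, neither normalized nor filtered. Of genes with 1 to 20 counts in a human library, 65.0% to 79.2% had an even count (mouse 71.1% to 78.6%), the pattern that counting both reads of a pair would give; whether that was done was not settled, and a fit on halved counts was added. The tables hold 20 further columns that were not used.

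Counts were analysed in R 4.3.3 with edgeR 4.0.16 (filterByExpr, TMM, the legacy quasi-likelihood test), in 1 model of the 12 REC-1 libraries and 1 of the 8 mouse libraries. P-values were adjusted by Benjamini-Hochberg over all tested genes, and intervals are 95%. A gene was called at an adjusted p of at most 0.05 and at least 1.5-fold. Exon lengths and positions came from GENCODE release 44, which differs from the authors' annotation. The fit was tested on simulated data. DESeq2 1.42.0 was an alternative, with upper-quartile scaling, other filters, the replicate number, each library left out, and others in the closing section.

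The 9 genes and the gene lists were chosen with earlier results of these data known. Named are the 9 genes, called genes and the 2 highest of each list, all ligand genes in MS-5, and the 3 genes nearest to CXCR4 in standardized log2 CPM (prior count 2). BCL9L, LTB4R2 and PLCB2 were named after their values were seen, as were genes at 0 or in marker lists. At these depths, counting error limits CCR7, CXCR3 and CCR6 most.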

Additional observations from a re-analysis of the deposited data

Results flagged for a closer look

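Within groups of 4 libraries, 1 library stood far from the other 3 in 3 of 40 groups examined over the tested members, the called pathway genes and the tested ligand genes of MS-5, where chance alone flags about 5% of groups. CXCR5 was at 39.3 CPM in Adh replicate 1 and at 50.2 to 51.9 CPM in the other Adh libraries. GPR183 was at 42.6 CPM in Susp replicate 1 and at 39.4 to 39.8 CPM in the others, and its difference between Susp and Sep kept its direction without any 1 library (0.31 to 0.37 on the log2 scale). ARRB2 was at 50.6 CPM in Susp replicate 2 and at 37.7 to 39.2 CPM in the others.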

How the results depend on the processing

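None of the 7 tested members was called in any comparison under any setting run, including counts halved and the mean of both coculture fractions against Sep, both added after seeing the data, and no fold-change minimum. CCR7 could not be called in all of them. The filter of at least 10 counts in every library left it out, and DESeq2 gave it no adjusted p between Susp and Sep. In the 3 comparisons between fractions, members had 416 log2 fold changes under the alternatives. Of these, 396 kept their direction and their side of an adjusted p of 0.05, 8 passed to at most 0.05 and 12, all of them with 1 library left out, changed sign. The contrast of both coculture fractions with Sep is not in these numbers. In it, the edgeR or DESeq2 adjusted p was at most 0.05 in 6 of 19 alternatives for CXCR4 and in 1 for CXCR5. With 1 library left out, the Adh minus Susp value ran from -0.13 to 0.00 for CXCR4, -0.05 to 0.11 for CXCR5, -0.23 to 0.11 for CCR7, -0.09 to 0.12 for ACKR3 and -0.12 to 0.05 for CXCL10, the coculture minus Sep value from -0.12 to 0.09 for GRK2 and -0.03 to 0.08 for ARRB2, and the Susp minus Sep value of LTB4R from -0.22 to 0.11. Over the human pathway lists, the 2 genes called between Adh and Susp became 0 to 2 with 1 library left out. Without the fold-change minimum, the 0 ligand genes called in MS-5 became 1 (Cxcl12).

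Each group has 1 library of each replicate number, and the sample codes of libraries with the same number share a digit. The labels do not say what a number or its digit marks. The main fit left the numbers out, so a pairing, if there was any, is ignored in it. Deviations of same-numbered libraries correlated above 0.1 for 1 of 4 numbers between Susp and Sep, 3 between Adh and Sep, 1 between Adh and Susp and 2 in the mouse libraries. In these comparisons 3, 6, 3 and 6 of 8 libraries correlated best with their own number. Such correlations are a hint from the data and cannot settle whether the numbers mark pairs. With the replicate block, 0 members were called, and CXCR4 (edgeR adjusted p = 0.0222, log2 fold change -0.36) and CXCR5 (edgeR adjusted p = 0.0442, log2 fold change 0.32) had an adjusted p of at most 0.05 between Adh and Sep, with ranges over all alternatives of 0.0196 to 0.184 and 0.0442 to 0.322. Over the pathway lists, 2, 4 and 3 genes were called with the block (Susp and Sep, Adh and Sep, Adh and Susp), beside 2, 4 and 2 without it, and 0 ligand genes in MS-5 either way, although Cxcl12 had an edgeR adjusted p of 1.08e-05 with the block (log2 fold change 0.46; 5.48e-14 to 0.172 over all alternatives).

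Over all genes, the 94, 309 and 100 calls (Susp and Sep, Adh and Sep, Adh and Susp) became 172, 527 and 282 with DESeq2, 175, 384 and 281 with the replicate block, 217, 503 and 341 with no low-count filter, and 64 to 135, 143 to 519 and 51 to 165 with 1 library left out. The 160 coculture calls became 270, 203 and 289, and 95 to 208. The 25 mouse calls, 5 of them higher in coculture, became 38 (13 higher), 45 (16) and 45 (19), and 8 to 36. The causes were not tested. Depth limits CXCR3 and CCR6, which the low-count filter left out of the main test, and CCR7.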
